A study of Mus musculus with 4 samples.

Results

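The glutathione transferases and the Nrf2 target genes of the liver were followed on 4 microarrays, 1 for each of 4 mouse genotypes. The set was built from gene names: all glutathione transferases of the cytosolic, mitochondrial and membrane-bound classes (Gsta, Gstk, Gstm, Gsto, Gstp, Gstt, Gstz and Mgst), the sensor pair Nfe2l2 and Keap1, and a list of antioxidant and detoxifying enzymes. Of 18194 genes with a probe set of their own on the array, 42 belonged to the set, 23 of them glutathione transferases and 19 others. They were measured by 72 probe sets, and where a gene had more than 1, as 20 did, the brightest on average supplied its value. Prdx1, a peroxiredoxin on the list, had no probe set of its own and was not counted among the 42.

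All mice were 5 weeks old and non-fasted. WT mice carried the Rps6 lox/lox alleles without Cre. ΔS6 mice (DS6 in the labels) carried the same alleles with Albumin-Cre. This Cre removes Rps6, a protein of the small ribosomal subunit, in hepatoblasts and their descendants from before birth onward. Alb-c-Myc mice carried a c-Myc transgene under the albumin promoter, and ΔS6:c-Myc mice (DS6:c-Myc in the labels) carried this transgene together with the Rps6 deletion. The Cre-driven deletion is incomplete. The paper reports recombination that was low at birth and rose afterwards, and neonatal livers that were mosaic for Rps6. It also reports more recombination in ΔS6:c-Myc than in ΔS6 livers. Unlike ΔS6 livers, those of ΔS6:c-Myc mice lacked regenerative nodules and a ductular reaction (proliferating duct-like cells) in the paper. The paper describes loss of Rps6 in both hepatocytes and biliary cells. Liver cells that do not descend from hepatoblasts keep the gene. Each array held liver RNA of 3 mice pooled in equal amounts, described as male in the labels. With 1 array per genotype there was no replicate and no test, and the comparisons below describe these 4 pools.

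Glutathione is a small peptide that neutralizes peroxides and reactive chemicals. Glutathione transferases attach it to reactive compounds, glutathione peroxidases use it to reduce peroxides, and reductases restore it. Many of these genes are switched on by Nrf2, the protein product of Nfe2l2. Keap1 normally holds Nrf2 in the cytosol and targets it for destruction. When Keap1 is modified by oxidants or electrophiles, Nrf2 enters the nucleus, pairs with a small Maf protein and binds antioxidant response elements near its target genes. The liver, which meets most ingested and internally made toxins first, is among the organs in which these enzymes are most abundant.

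The antioxidant response element has the core TGACNNNGC. It was searched on both strands from 250 bases before to 50 bases after each RefSeq transcript start (build GRCm38.p6). It was present in the window of 9 of the 38 members that had one (23.7%), beside 14.0% of 27025 genes, and in 17.3% of 52 member windows beside 12.4% of all 32851 windows. Gclc, Gsr, Gsta4 and Gstt2 had no window in the table used. The matches that lay before the start are shown because they place the element among the members. Each line gives the strand of the gene in the 5′ to 3′ direction, with the match in capitals (a match on the opposite strand reads GCNNNGTCA).
Nfe2l2 (chr2:75704870-75704913, minus strand): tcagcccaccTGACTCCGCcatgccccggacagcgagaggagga
Gclm (chr3:122245398-122245456, plus strand): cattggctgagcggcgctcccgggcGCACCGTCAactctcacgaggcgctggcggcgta
Txnrd1 (chr10:82859089-82859147, plus strand): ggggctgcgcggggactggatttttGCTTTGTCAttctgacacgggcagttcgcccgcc
Sod1 (chr16:90220681-90220739, plus strand): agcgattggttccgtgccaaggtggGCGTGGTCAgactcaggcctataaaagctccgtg
Gsta3 (chr1:21240439-21240497, plus strand): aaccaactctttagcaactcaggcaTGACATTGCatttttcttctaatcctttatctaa
Gstm5 (chr3:107895787-107895845, plus strand): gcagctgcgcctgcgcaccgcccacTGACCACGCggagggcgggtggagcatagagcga
Gstm7 (chr3:107931710-107931768, minus strand): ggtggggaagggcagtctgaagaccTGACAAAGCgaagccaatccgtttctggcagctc
Mgst1 (chr6:138140446-138140504, plus strand): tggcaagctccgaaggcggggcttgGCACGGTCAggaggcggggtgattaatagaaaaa

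The ninth match, in Srxn1, lay after the start. The 8 members found at least 2-fold higher for ΔS6 over WT (below) all had a window, and Srxn1 was the 1 that held the core (12.5%). Of the 8 found at least 2-fold higher for ΔS6:c-Myc over Alb-c-Myc, 7 had a window and 1 held the core (14.3%). Both shares lay near the 14.0% of all genes. Elements farther from the start were outside these windows. The 100 bases before the start are shown for 3 members with different patterns over the arrays whose windows held no match: Cbr3, with the largest ratio, Gstm3, which went with the Rps6 deletion on both backgrounds, and Gstp3, which was highest on the Alb-c-Myc array.
Cbr3 (chr16:93683119-93683218, plus strand): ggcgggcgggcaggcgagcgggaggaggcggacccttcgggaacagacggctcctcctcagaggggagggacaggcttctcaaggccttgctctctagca
Gstm3 (chr3:107969175-107969274, minus strand): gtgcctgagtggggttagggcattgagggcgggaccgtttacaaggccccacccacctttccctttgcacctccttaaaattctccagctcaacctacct
Gstp3 (chr19:4059448-4059547, minus strand): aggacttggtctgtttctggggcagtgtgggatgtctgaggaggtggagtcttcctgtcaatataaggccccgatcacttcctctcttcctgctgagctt

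All values are RMA expression values on the log2 scale, on which a difference of 1 is a 2-fold difference. The 4 arrays had medians between 6.85 and 6.88 over all probe sets. Values under 6 were treated as dim, because differences there are compressed. Myc stood at 8.33 on the WT and 8.89 on the ΔS6 array, and at 11.68 on the Alb-c-Myc and 11.37 on the ΔS6:c-Myc array. The 9 probe sets shared by Rps6 and its pseudogene Rps6-ps4 had medians of 11.12 for WT, 10.78 for ΔS6, 11.23 for Alb-c-Myc and 9.48 for ΔS6:c-Myc. Their log2 ratio was between -0.42 and -0.10 for ΔS6 over WT and between -2.37 and -1.25 for ΔS6:c-Myc over Alb-c-Myc, and the 2 probe sets of Rps6 alone went in opposite directions in both comparisons. Hepatocyte markers were high on every array, with Alb between 15.38 and 15.46. The WT array stood apart in other respects. Although its label says male, Xist, which is transcribed from the inactive X, stood at 11.84 there and at 5.88 to 6.33 on the other 3 arrays. The Y-linked genes were present on the WT array at slightly lower values, Kdm5d at 7.70 against 8.07 to 8.25 on the other 3, Eif2s3y at 8.67 against 8.91 to 9.11 and Uty at 7.73 against 7.79 to 8.03. In addition, 9 of 9 pancreatic acinar genes were at least 2-fold higher on it than on the ΔS6 array, beside 2.54% of all genes. ΔS6 was therefore also set against the Alb-c-Myc array, and those values are given beside the ratios over WT.

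**Figure D1:**
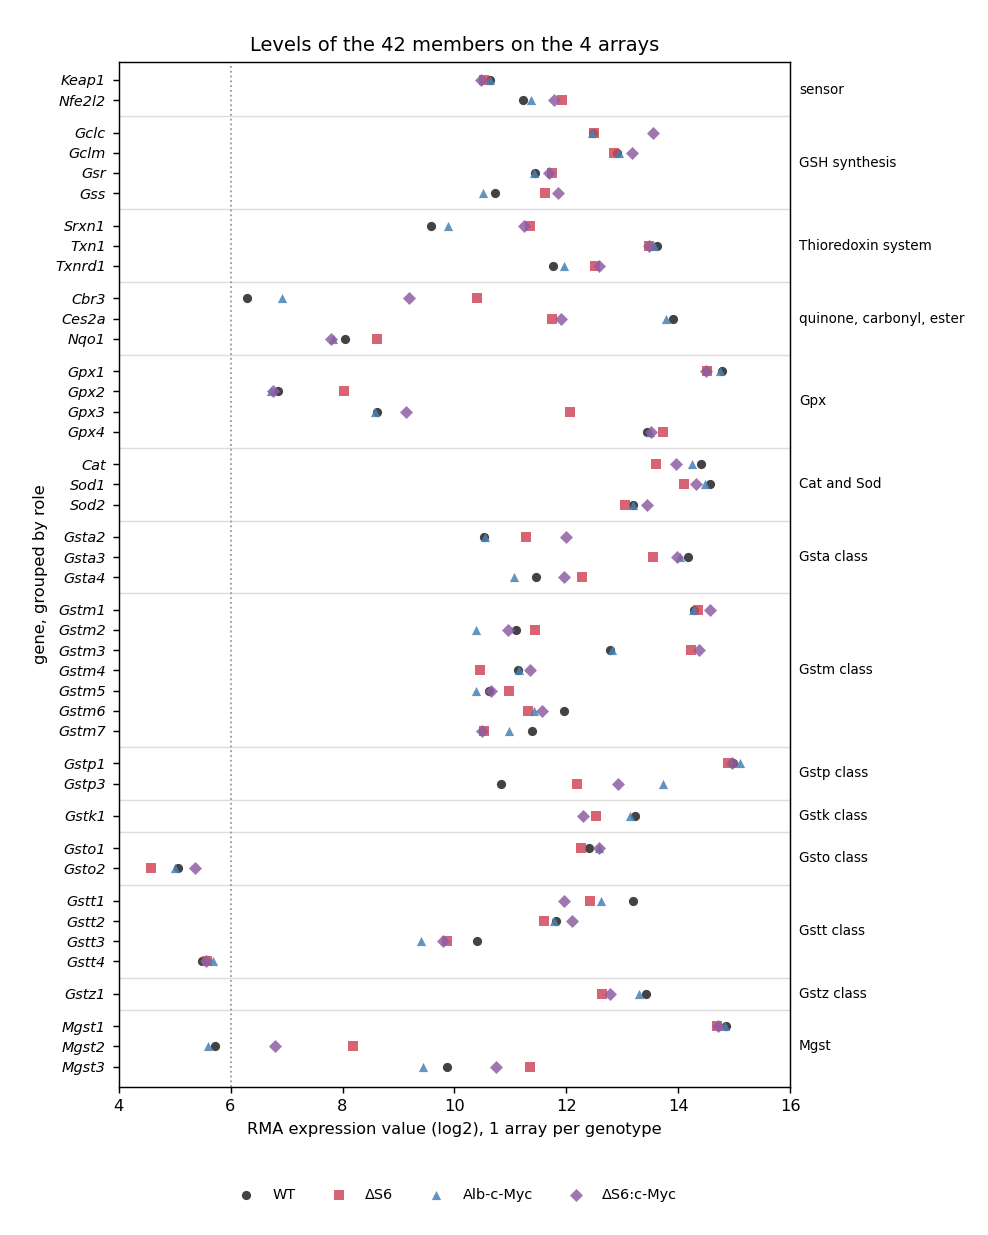
RMA expression value (log2, horizontal axis) of the 42 members on the arrays of WT (circles), ΔS6 (squares), Alb-c-Myc (triangles) and of ΔS6:c-Myc (diamonds), grouped by role, with a dotted line at 6. Most members lie close together on the 4 arrays, while Cbr3, Gpx3, Mgst2, Gstp3 and Ces2a are spread widely.

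Deletion of Rps6 was accompanied by higher mRNA of a minority of the set. Of the 42 members, 8 exceeded their WT value at least 2-fold in ΔS6 (19.0%, beside 7.24% of all genes, or 8.80% of the 13890 genes with a mean of at least 6), and 1 was at least 2-fold lower (2.38%, beside 2.54%). The members that were higher were Cbr3, Gpx3, Mgst2, Srxn1, Mgst3, Gstm3, Gstp3 and Gpx2, and the member that was lower was Ces2a. The set did not move as a block: its median log2 ratio was -0.01, beside -0.05 over all genes, and 21 of 42 ratios were above 0. As the RNA came from whole liver, more cells of a type and more RNA per cell cannot be told apart. Against the Alb-c-Myc array 10 members were at least 2-fold higher (beside 7.00% of all genes) and 2 were lower (beside 2.23%), with Gss, Gsta4 and Gstm2 added to the higher members and Gstp3 moved to the lower.

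With the c-Myc transgene on both sides, the count was the same and the members partly others. Here 8 of 42 members exceeded their Alb-c-Myc value at least 2-fold in ΔS6:c-Myc (19.0%, beside 1.99% of all genes, or 2.54% of those with a mean of at least 6) and 1 was lower (2.38%, beside 1.36%). The higher members were Cbr3, Gstm3, Gsta2, Srxn1, Gss, Mgst3, Mgst2 and Gclc, and the lower was again Ces2a. The median log2 ratio of the members was 0.21, beside -0.01 over all genes. The comparison uses neither the WT nor the ΔS6 array. Of the 8 members in each list, 5 were in both (62.5% of each), namely Cbr3, Gstm3, Mgst2, Mgst3 and Srxn1. Over all genes, the genes at least 2-fold higher in both comparisons made up 18.1% of the list for ΔS6 over WT and 66.0% of that for ΔS6:c-Myc over Alb-c-Myc. The ratios of the 42 members in both comparisons had the same sign for 31 (73.8%, beside 71.1% of all genes) and correlated with a Pearson r of 0.73 and a Spearman rho of 0.71 (0.61 and 0.59 over 18194 genes). These correlations are across genes, which are not independent replicates.

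**Figure D2:**
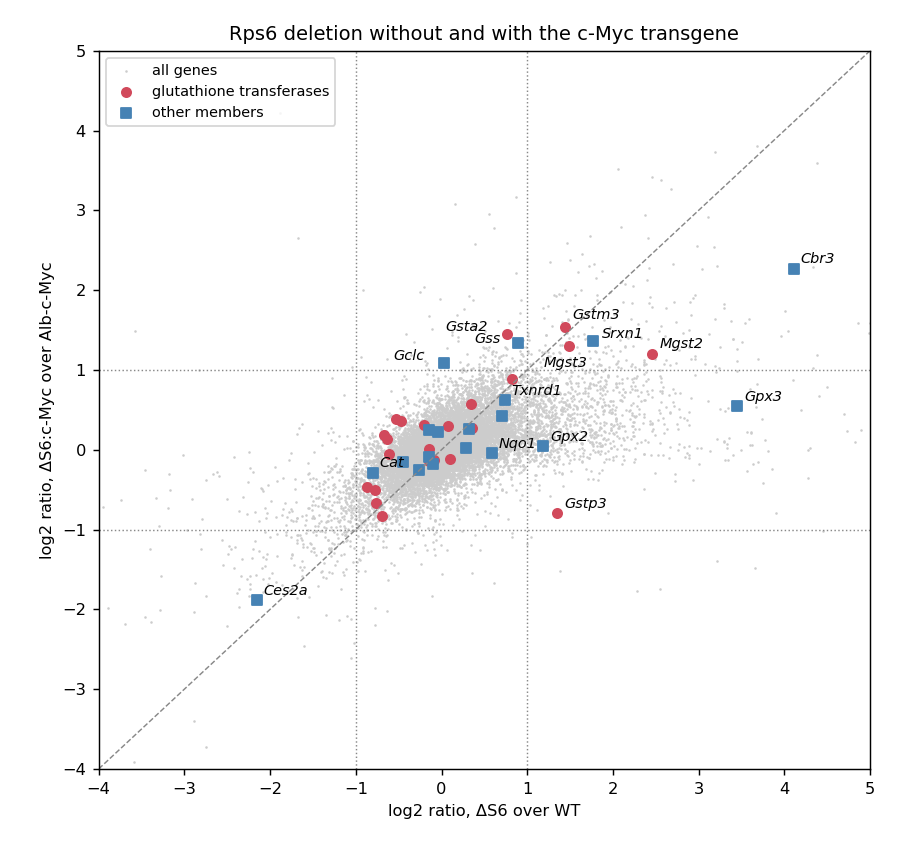
Log2 ratio of ΔS6 over WT (horizontal axis) against that of ΔS6:c-Myc over Alb-c-Myc on the vertical axis for all genes (gray), glutathione transferases (red circles) and the other members (blue squares), with dotted lines at 2-fold and a dashed line of equality. Cbr3, Gstm3, Mgst2, Mgst3 and Srxn1 lie in the upper right field and Ces2a in the lower left, while Gpx3 (3.45 and 0.55) and Gstp3 (1.35 and -0.80) lie far below the line of equality. The axes run from -4 to 5, and 33 genes that are not members fall outside them.

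The c-Myc transgene alone went with few differences. For Alb-c-Myc over WT, 1 member was at least 2-fold higher (2.38%, beside 0.418% of all genes) and 1 lower (2.38%, beside 0.335%), namely Gstp3 and Gstt3, and the median ratio was -0.03 (0.00 over all genes). Where the Rps6 deletion was present, the members past 2-fold with the transgene were mostly lower. For ΔS6:c-Myc over ΔS6, 4 members, Gpx3, Mgst2, Gpx2 and Cbr3, were at least 2-fold lower (9.52%, beside 4.29% of all genes) and 1, Gclc, was higher (2.38%, beside 0.769%), with a median ratio of 0.01 (0.05 over all genes). Of the 42 members, 29 stayed within 2-fold in all 4 comparisons. At a limit of 1.5-fold, 14 members were higher and 9 lower for ΔS6 over WT (beside 13.8% and 7.06% of all genes), 2 and 2 for Alb-c-Myc over WT (1.59% and 0.951%), 10 and 4 for ΔS6:c-Myc over Alb-c-Myc (6.82% and 4.28%), and 5 and 6 for ΔS6:c-Myc over ΔS6 (4.00% and 9.35%). For scale, probe sets of the same gene differed in their log2 ratio by an SD of 0.27 for ΔS6 over WT, 0.14 for Alb-c-Myc over WT, 0.24 for ΔS6:c-Myc over Alb-c-Myc and 0.20 for ΔS6:c-Myc over ΔS6 (3379 genes). This SD covers the probes and not the mice.

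Neither gene of the sensor pair reached 2-fold by its brightest probe set. Nfe2l2 stood at 11.22 for WT, 11.92 for ΔS6, 11.36 for Alb-c-Myc and 11.78 for ΔS6:c-Myc, so that both arrays with the Rps6 deletion lay above both without it. Its log2 ratio was 0.70 for ΔS6 over WT (0.56 over Alb-c-Myc) and 0.42 for ΔS6:c-Myc over Alb-c-Myc. A second, dimmer probe set gave 0.60 and 1.05, and for ΔS6:c-Myc over ΔS6 the brighter gave -0.14 and the dimmer 1.01. Keap1 stood at 10.63, 10.53, 10.64 and 10.47 in the same order of arrays, with no ratio beyond 0.19 in size by either of its probe sets. Nrf2 is governed mainly through the stability of its protein, which an array does not measure.

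Among the enzymes that make and regenerate glutathione, the first and the last step of synthesis behaved differently. Gclc, the catalytic subunit of glutamate-cysteine ligase and the rate-limiting enzyme of glutathione synthesis, stood at 12.47 for WT, 12.49 for ΔS6, 12.46 for Alb-c-Myc and 13.54 for ΔS6:c-Myc. It was level on 3 arrays and 2.12-fold higher for ΔS6:c-Myc over Alb-c-Myc (log2 ratio 1.08, and 1.03 by its second probe set). Over ΔS6 the ratio was 1.04 and 0.92 by the same probe sets, on both sides of the 2-fold limit. Gclm, the modifier subunit of the same enzyme, stood at 12.90, 12.85, 12.93 and 13.16. A second probe set gave -0.87 for ΔS6 over WT where the first gave -0.05. For ΔS6:c-Myc over Alb-c-Myc the probe sets differed in sign, at 0.23 by the first and -0.48 by the second. Gss, glutathione synthetase, which completes the peptide, stood at 10.73 for WT, 11.61 for ΔS6, 10.52 for Alb-c-Myc and 11.85 for ΔS6:c-Myc. Both arrays with the Rps6 deletion were higher than both without it, by 0.89 for ΔS6 over WT (1.14 by the second probe set) and by 1.33 for ΔS6:c-Myc over Alb-c-Myc (1.36). Gsr, which reduces oxidized glutathione, stood at 11.43, 11.75, 11.43 and 11.69, a difference of 0.32 and 0.27 with the deletion.

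The thioredoxin system, which reduces oxidized proteins in parallel to glutathione, included 1 member past 2-fold. Srxn1, sulfiredoxin, which repairs overoxidized peroxiredoxins, stood at 9.58 for WT, 11.35 for ΔS6, 9.89 for Alb-c-Myc and 11.25 for ΔS6:c-Myc. It was 3.41-fold above WT in ΔS6 and 2.57-fold above Alb-c-Myc in ΔS6:c-Myc, and the deletion arrays lay close together (-0.11 for ΔS6:c-Myc over ΔS6). Of its 4 probe sets, 3 gave log2 ratios of 1.77, 1.79 and 2.07 for ΔS6 over WT, and the fourth, dimmest one gave 0.40. Txnrd1, thioredoxin reductase, stood at 11.77, 12.50, 11.96 and 12.57, again higher on both deletion arrays (0.74 and 0.62). Its other probe sets gave 1.30 and 0.80 for ΔS6 over WT and 0.88 and 0.65 for ΔS6:c-Myc over Alb-c-Myc. Txn1, thioredoxin itself, differed by at most 0.15 by its brighter probe set. The 5 probe sets that Prdx1 shared with Gm21399 had ratios between -0.32 and 0.01 for ΔS6 over WT and between -0.04 and 0.07 for ΔS6:c-Myc over Alb-c-Myc.

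Cbr3, Nqo1 and Ces2a act on carbonyls, quinones and esters, and each had a pattern of its own. Cbr3, carbonyl reductase 3, stood at 6.30 for WT, 10.41 for ΔS6, 6.92 for Alb-c-Myc and 9.19 for ΔS6:c-Myc. It was 17.2-fold above WT in ΔS6 (log2 ratio 4.11, and 3.49 over Alb-c-Myc) and 4.82-fold above Alb-c-Myc in ΔS6:c-Myc. For ΔS6 over WT and for ΔS6:c-Myc over Alb-c-Myc these were the largest ratios of the set. Its value in ΔS6:c-Myc was 2.32-fold under that in ΔS6. Nqo1, the quinone reductase most often used as a readout of Nrf2, stood at 8.04, 8.62, 7.83 and 7.79. It was thus 0.59 above WT in ΔS6, whereas ΔS6:c-Myc and Alb-c-Myc were level (-0.04). Ces2a, a carboxylesterase that hydrolyzes drugs and lipids, stood at 13.90, 11.74, 13.79 and 11.90, and it was 4.46-fold below WT in ΔS6 and 3.69-fold below Alb-c-Myc in ΔS6:c-Myc. Its values on both arrays with the deletion lay far below both without it, opposite to Cbr3.

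Of the 4 glutathione peroxidases, Gpx3 and Gpx2 passed 2-fold in ΔS6 alone. Gpx3, the secreted form found in plasma, stood at 8.62 for WT, 12.07 for ΔS6, 8.58 for Alb-c-Myc and 9.13 for ΔS6:c-Myc. It was 10.9-fold above WT in ΔS6 and 1.46-fold above Alb-c-Myc in ΔS6:c-Myc, where it was 7.68-fold under the ΔS6 value. Gpx2, a form of the gut epithelium, stood at 6.84, 8.03, 6.72 and 6.76, so that the ΔS6 array (2.28-fold over WT) was higher than the other 3, which lay close together. Gpx1, the main cytosolic form, and Gpx4, which reduces lipid peroxides in membranes, differed by 0.29 or less in the 4 comparisons. Catalase (Cat), the peroxisomal enzyme that breaks down hydrogen peroxide, stood at 14.41, 13.61, 14.24 and 13.95, and thus was lower on both deletion arrays (-0.80 and -0.29, and -0.53 and -0.28 by its second probe set). The superoxide dismutases Sod1 and Sod2 had ratios of -0.45 and -0.14 for ΔS6 over WT by their brightest probe sets. The 5 probe sets of Sod1 ranged from -1.07 to 0.36 and the 4 of Sod2 from -0.97 to -0.11.

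Among the 23 glutathione transferases, 4 were at least 2-fold higher for ΔS6 over WT (beside 7.24% of all genes), none was lower (beside 2.54%), and 13 of 23 ratios were below 0 (median -0.14). For ΔS6:c-Myc over Alb-c-Myc 4 were higher (beside 1.99%) and none lower (beside 1.36%), and 14 of 23 ratios were above 0 (median 0.19). The brightest of the 23, Gstp1, Gstm1 and Mgst1, stayed within 0.15 for ΔS6 over WT and within 0.30 for ΔS6:c-Myc over Alb-c-Myc by their brightest probe sets. Over all probe sets, Gstm1 lay between -0.25 and 0.09 and between 0.30 and 0.40 in these comparisons, and a dim second probe set of Mgst1 gave -0.31 and -0.21. Gsta3, the main alpha class enzyme of mouse liver, had ratios of -0.62 and -0.06 (-1.18 and -0.15 by its second probe set). Gstk1 (-0.70 and -0.83), Gstz1 (-0.77 and -0.51) and Gstt1 (-0.76 and -0.67), which act in mitochondria, in tyrosine breakdown and on small halogenated compounds, were lower on the deletion arrays without reaching 2-fold. Gsto2 and Gstt4 were dim on every array.

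In the alpha class, Gsta2 stood at 10.52 for WT, 11.28 for ΔS6, 10.54 for Alb-c-Myc and 11.99 for ΔS6:c-Myc. WT and Alb-c-Myc were level, ΔS6 was 1.69-fold over WT, and ΔS6:c-Myc was 2.73-fold over Alb-c-Myc. A probe set that cannot separate Gsta1, Gsta2 and Gm3776 showed the same order with wider steps, at 10.20, 12.22, 10.23 and 13.33 (log2 ratios of 2.02 for ΔS6 over WT, 3.10 for ΔS6:c-Myc over Alb-c-Myc and 1.11 for ΔS6:c-Myc over ΔS6). Gsta1 and Gsta2 are close copies and are classic inducible transferases, and how much each contributes cannot be read from this probe set, which was not counted. Gsta4, which clears the lipid peroxidation product 4-hydroxynonenal, was 0.83 above WT in ΔS6 (1.21 above Alb-c-Myc) and 0.89 above Alb-c-Myc in ΔS6:c-Myc.

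The mu class genes lie side by side on chromosome 3, in the order Gstm5, Gstm7, Gstm6, Gstm3, Gstm2, Gstm1 and Gstm4 (assembly GRCm38.p6), and they did not move together. Gstm3 stood at 12.78 for WT, 14.22 for ΔS6, 12.82 for Alb-c-Myc and 14.36 for ΔS6:c-Myc. The WT and Alb-c-Myc arrays were level, as were both deletion arrays, with a 2.71-fold step for ΔS6 over WT and a 2.92-fold step for ΔS6:c-Myc over Alb-c-Myc. Its second probe set gave log2 ratios of 1.72 and 2.07. Along the cluster in the order above, the log2 ratios for ΔS6 over WT were 0.35, -0.86, -0.64, 1.44, 0.34, 0.08 and -0.67, so that the neighbors of Gstm3 on either side were -0.64 and 0.34. For ΔS6:c-Myc over Alb-c-Myc they were 0.27, -0.47, 0.14, 1.54, 0.57, 0.30 and 0.19. Mu class genes are close copies, and the chosen Gstm3 and Gstm1 probe sets belong to types that the array maker marks as able to match more than 1 transcript, so some signal may be shared between neighbors.

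Of the membrane-bound transferases, Mgst2 and Mgst3, which also act on leukotrienes and lipid peroxides, were higher with the Rps6 deletion on both backgrounds. Mgst2 stood at 5.73 for WT, 8.18 for ΔS6, 5.59 for Alb-c-Myc and 6.79 for ΔS6:c-Myc. It was dim without the deletion, 5.49-fold above WT in ΔS6 and 2.30-fold above Alb-c-Myc in ΔS6:c-Myc, where it was 2.62-fold under the ΔS6 value. Mgst3 stood at 9.86, 11.35, 9.43 and 10.74, a log2 difference of 1.48 for ΔS6 over WT (1.91 over Alb-c-Myc) and of 1.30 for ΔS6:c-Myc over Alb-c-Myc. Its second probe set, at 6.45 to 6.56 on the 4 arrays, showed no such step (-0.05 and 0.03).

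Gstp3 and Gstt3 were the members past 2-fold with the transgene alone. Gstp3, of the pi class, stood at 10.84 for WT, 12.19 for ΔS6, 13.73 for Alb-c-Myc and 12.93 for ΔS6:c-Myc. WT was the lowest of the 4 arrays and Alb-c-Myc the highest, 7.40-fold over WT. The ratio of ΔS6 was 1.35 over WT but -1.54 over Alb-c-Myc, and that of ΔS6:c-Myc over Alb-c-Myc was -0.80. Gstt3, of the theta class, stood at 10.40, 9.87, 9.40 and 9.79, with WT the highest and a ratio of -1.00 for Alb-c-Myc over WT, on the 2-fold limit itself. Both values rest on the WT array. In the same comparison, 7 of 9 pancreatic acinar genes and 5 of 7 genes that are female-biased in liver were at least 2-fold lower in Alb-c-Myc (beside 0.335% of all genes). Of 7 male-biased genes 3 were higher (beside 0.418%) and 1 was lower. Their part in the Gstp3 and Gstt3 values was not tested.

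**Figure D3:**
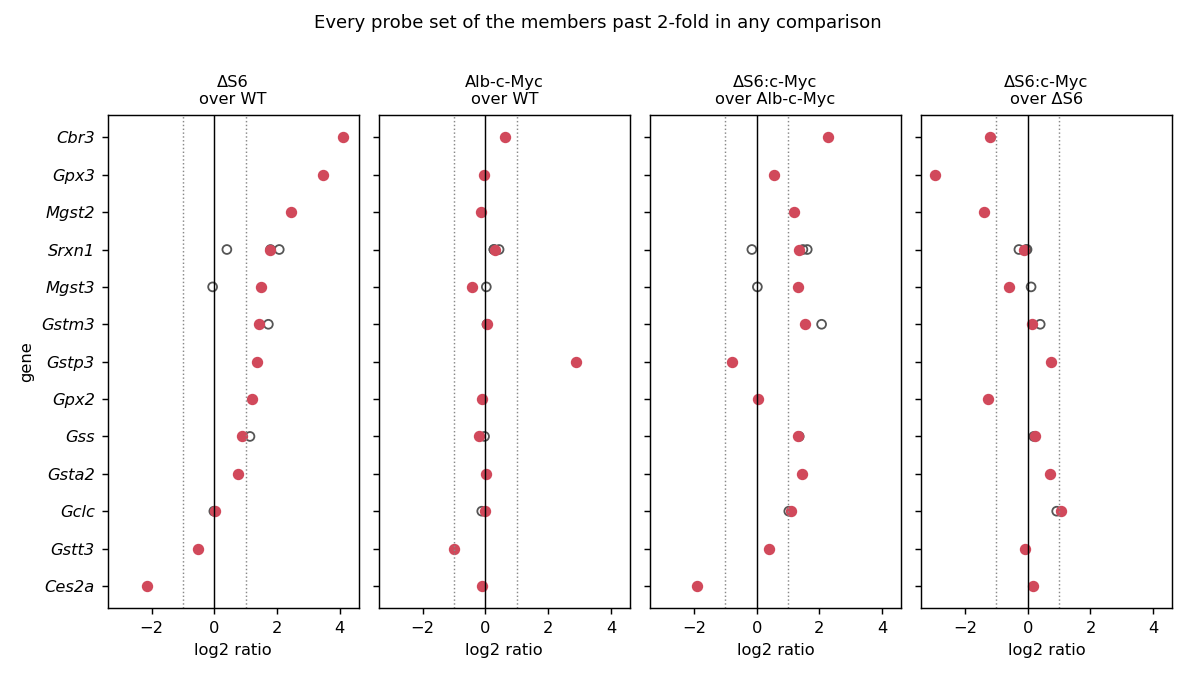
Log2 ratio (horizontal axes) of every probe set of the 13 members past 2-fold in any of the 4 comparisons, 1 panel per comparison, with the probe set that gave the gene's value filled and the others open, and dotted lines at 2-fold. Both probe sets of Gstm3 are past 2-fold in both panels that compare a deletion array with one without the deletion, those of Gss and Gclc are past it for ΔS6:c-Myc over Alb-c-Myc, and 1 dimmer probe set each of Srxn1 (0.40 for ΔS6 over WT and -0.15 for ΔS6:c-Myc over Alb-c-Myc) and Mgst3 (-0.05 and 0.03) lies nearer 0 than the others.

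Other genes of the same pathway, taken from a list of 30 that was not part of the set (27 measured), gave differences in both directions. For ΔS6 over WT, 5 of 27 (Abcc4, Hmox1, Akr1b8, Pgd and Cbr1) passed 2-fold upward, beside 7.24% of all genes, and 1 (Me1) downward, beside 2.54%, and the median ratio was 0.13. Hmox1, heme oxygenase, stood at 8.19 for WT, 10.96 for ΔS6, 8.20 for Alb-c-Myc and 9.45 for ΔS6:c-Myc. Abcc4, an efflux pump for bile acids and conjugates, stood at 6.63, 9.67, 6.93 and 9.19. Both were higher on the deletion arrays than on the others, and Hmox1 had a ratio of -1.51 for ΔS6:c-Myc over ΔS6. Akr1b8, an aldo-keto reductase, stood at 7.85, 10.08, 7.76 and 7.99, with ΔS6 alone high as for Gpx2. Pgd, an enzyme of the pentose phosphate pathway that yields NADPH, had a ratio of 1.21 for ΔS6 over WT, and Me1, malic enzyme, which also supplies NADPH, had one of -1.16.

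With the transgene on both sides, 3 of these 27 genes (Abcc4, Abcc2 and Hmox1) passed 2-fold upward, beside 1.99% of all genes, and 1 (Abcc3) downward, beside 1.36%, and the median ratio was 0.23. Abcc2, the canalicular pump for glutathione conjugates, stood at 9.70 for WT, 9.89 for ΔS6, 9.61 for Alb-c-Myc and 10.98 for ΔS6:c-Myc. It was high in ΔS6:c-Myc alone, as was Gclc. None of the 27 was past 2-fold for Alb-c-Myc over WT. For ΔS6:c-Myc over ΔS6 1 was higher, beside 0.769% of all genes, and 3 were lower, beside 4.29%. A second list held 29 genes of glutathione breakdown, glutaredoxins and other peroxidases (25 measured). For ΔS6 over WT, 3 of the 25 were higher (Abcc1, Gpx7 and Gpx8), beside 7.24% of all genes. Another 2 were lower (Chac1 and Hagh), beside 2.54%, and the median ratio was -0.33. For ΔS6:c-Myc over Alb-c-Myc, 1 of the 25, Chac1, was lower, beside 1.36% of all genes, and the median was 0.10. Chac1, which degrades glutathione in the cytosol, stood at 9.12, 7.51, 9.66 and 7.20, and was lower on both deletion arrays.

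Markers of other cell types moved along with several of these genes. The shares of all genes were 7.24% higher for ΔS6 over WT, 1.99% higher for ΔS6:c-Myc over Alb-c-Myc and 4.29% lower for ΔS6:c-Myc over ΔS6. Of 8 bile duct and progenitor cell markers, 7 were at least 2-fold higher for ΔS6 over WT and 2 for ΔS6:c-Myc over Alb-c-Myc, and 7 were lower for ΔS6:c-Myc over ΔS6. The eighth, Cftr, was dim on all 4 arrays. The sum of their values on the linear scale was 855 for WT, 22503 for ΔS6, 826 for Alb-c-Myc and 2071 for ΔS6:c-Myc. Of 11 macrophage and Kupffer cell markers, 10 were higher in the first of these comparisons and 3 in the second, and 8 were lower for ΔS6:c-Myc over ΔS6. Their sums were 13338, 62139, 12151 and 21376. For neutrophils, 6 of 8 were higher in the first and none in the second, with sums of 919, 24046, 825 and 909, and 6 were lower for ΔS6:c-Myc over ΔS6. Of 7 stellate cell and fibroblast markers 4 were higher in the first and none in the second, and 4 were lower for ΔS6:c-Myc over ΔS6. No B and T cell marker of 8 and no endothelial marker of 5 was higher in either, 1 endothelial marker (Lyve1) was lower in the second, and of 9 hepatocyte markers 1, G6pc, was lower in the second (beside 1.36% of all genes). Lyve1 and G6pc were also at least 2-fold lower for ΔS6:c-Myc over ΔS6.

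Gpx3, Gpx2, Cbr3 and Mgst2, the 4 members at least 2-fold lower for ΔS6:c-Myc over ΔS6, were also highest in ΔS6. Their choice by this ratio already placed ΔS6 above ΔS6:c-Myc, as in the bile duct, macrophage and neutrophil markers. Other members, among them Mgst3, Nqo1, Gsta4 and Srxn1, were highest in ΔS6 too, with less than 2-fold between ΔS6 and ΔS6:c-Myc. The part of other cell types in these values was not tested. Srxn1, Gstm3, Gsta2, Gss and Gclc were as high in ΔS6:c-Myc as in ΔS6 or higher, to within 0.11. Mgst3 lay between these and the 4 members above, at -0.61 for ΔS6:c-Myc over ΔS6. Sex-biased genes of the liver also differed: all 7 male-biased genes were at least 2-fold lower for ΔS6 over WT (beside 2.54% of all genes) and for ΔS6:c-Myc over Alb-c-Myc (beside 1.36%). Of 7 female-biased genes 1 was higher (beside 7.24%) and 3 were lower in the first comparison and 3 were higher in the second (beside 1.99%). Their part in the members' values was not tested either.

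**Figure D4:**
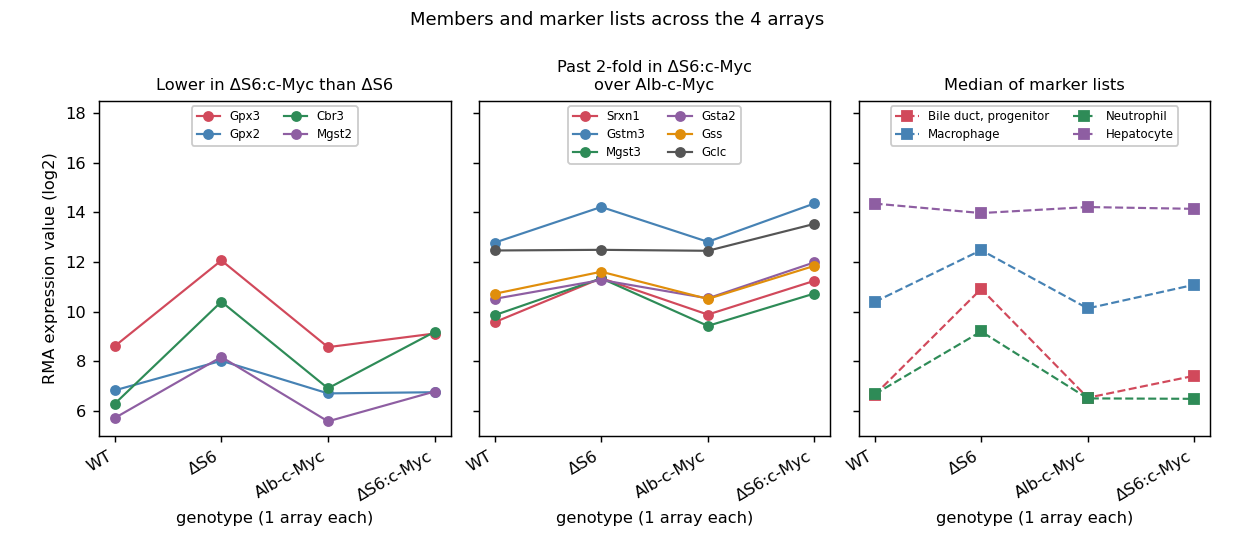
RMA expression values (log2, vertical axis) on the 4 arrays of the members past 2-fold downward for ΔS6:c-Myc over ΔS6 (left), of the other members past 2-fold upward for ΔS6:c-Myc over Alb-c-Myc (middle), and the median of 4 marker lists (right). The members on the left and the bile duct, macrophage and neutrophil medians peak in ΔS6, the members in the middle are near their highest in ΔS6:c-Myc except Mgst3 (11.35 in ΔS6, 10.74 in ΔS6:c-Myc), and the hepatocyte median stays between 13.97 and 14.36.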

How the data were processed

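Affymetrix mouse GeneChip arrays were hybridized with pooled liver RNA, 1 array for each of 4 genotypes. The deposited log2 values were made by the authors with RMA followed by quantile normalization, with no versions stated. The unit is log2, so differences between arrays are log2 ratios. Quantile normalization brings arrays to a common distribution, so that a shift of all mRNA together would not appear. The deposited distributions were close but not identical, with array medians from 6.85 for ΔS6:c-Myc to 6.88 for ΔS6.

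Of 45101 probe sets, 34958 had 1 gene symbol in the platform annotation, 932 had several and 9211 had none. Each of 18194 genes was represented by its brightest probe set, by the mean of the 4 arrays. All 42 members matched the RefSeq gene table by Entrez ID. Members were called higher or lower at 2-fold. Values on all arrays are given for each member at least 2-fold different in any of 4 comparisons and not dim (6 or above on some array), and for 9 fixed genes (Nfe2l2, Keap1, Gclc, Gclm, Gss, Gsr, Nqo1, Txnrd1, Cat). From each other list, up to 4 genes with the largest ratios in a comparison were named. Cbr1, Me1 and Hagh were named beyond these, after their values were seen, to complete a count. The members and lists were chosen with earlier results of these data known. With 1 array per genotype there was no error between replicates, and the number of arrays limits the precision. No spot intensities or detection calls were used here. Promoter sequences are from RefSeq. Samples were grouped by the labelled genotype. The 8 alternatives tried changed the array scaling, the filter on dim genes, the choice of probe sets, the fold limit and the reference array. The counting scripts were tested on simulated data. Calculations used pandas 2.3.3 and numpy 2.4.6 under Python 3.11.15, correlations scipy 1.17.1 and plots matplotlib 3.10.9.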

Additional observations from a re-analysis of the deposited data

Results flagged for a closer look

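For 6 members the ratio of the same contrast had opposite signs on the 2 backgrounds and passed a size filter. Both ratios had to exceed the SD between probe sets in size, and the gene had to reach 6 on some array. Members with smaller ratios of opposite sign are not listed. With 1 array per genotype the difference was not tested for any of them, and no explanation was weighed. Gstp3 was higher with the Rps6 deletion in the absence of the transgene (1.35) and lower in its presence (-0.80). Gstt3 was lower in the absence (-0.54) and higher in the presence of the transgene (0.39). For the transgene, Cbr3 was higher in the presence of Rps6 (0.62) and lower after its deletion (-1.22). Cat had ratios of -0.17 and 0.34, Gss of -0.21 and 0.24, and Gstm6 of -0.53 and 0.25 in the same order. The ratios without the deletion or without the transgene all use the WT array, which carries Xist and pancreatic RNAs. As the paper found more recombination in ΔS6:c-Myc than in ΔS6 livers, the deletion ratios on these backgrounds are not like for like.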

How the results depend on the processing

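No paired analysis was possible because each genotype has 1 array and the labels give no replicate numbers. Of 400 ratios of the 20 named members recomputed under 5 alternatives, 384 moved by less than the spread between probe sets, 16 moved by more (13 with the mean of all probe sets of a gene and 3 when probe sets with the suffix _x_at or _s_at were left out), and 0 called values changed sign. Many of the 384 could not have moved. The filter on dim genes leaves a ratio as it is, and centring shifts all ratios of a comparison alike. A gene with 1 probe set also keeps its value as a mean. The 384 is therefore no measure of stability. A limit of 1.5-fold gave 14 higher and 9 lower members for ΔS6 over WT (beside 13.8% and 7.06% of all genes), 2 and 2 for Alb-c-Myc over WT (1.59% and 0.951%), 4 lower for ΔS6:c-Myc over Alb-c-Myc (4.28%) and 5 higher for ΔS6:c-Myc over ΔS6 (4.00%). With the Alb-c-Myc array as the reference for ΔS6, 2 members were lower. With the mean of all probe sets, ΔS6:c-Myc over ΔS6 had 0 higher members and a median of 0.11. Counting probe sets of several symbols gave 2 higher there. Repeated quantile normalization gave 0 lower members for Alb-c-Myc over WT, as Gstt3 sits on the limit. The other counts stayed within 1.5 times, and the medians moved by less than the tolerance of 0.1, though that of ΔS6 over WT changed sign around 0 (-0.03 to 0.04). An equal count can hide a change of members. With the mean of all probe sets, Mgst3 fell to 0.71 for ΔS6 over WT and Gss rose to 1.01, so the count stayed at 8. For ΔS6:c-Myc over Alb-c-Myc Mgst3 fell to 0.66, so that it was past 2-fold in neither comparison. With 1 array per genotype, no replicate could be left out, and depth has no counterpart beyond the brightness of the probes: Mgst2 is dim in WT and Alb-c-Myc, so its folds there may be understated.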
